A study of Homo sapiens with 6 samples.

Results

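The transcripts described here are those of 8 genes of the TALE class of homeobox transcription factors: MEIS1, MEIS2 and MEIS3, PBX2, PBX3 and PBX4, and PKNOX1 and PKNOX2. They were taken by gene name, and each name marks 1 of the 62754 rows in every library's gene table. The RNA was poly(A)-selected from HUDEP-2, a human line of immortalised erythroid precursors in which adult hemoglobin predominates. The 6 libraries form 2 groups of 3 biological replicates, taken from the sample titles. One group was transduced with a lentivirus for the MEN1 hairpin called MEN1sh2 (labelled as a MEN1 knockdown), the other with a non-targeting hairpin called Controlsh (labelled as wild type). Both groups were kept in erythropoietin (3 units per ml), stem cell factor (50 ng per ml), dexamethasone (1e-06 M) and doxycycline (1 µg per ml), were selected in puromycin (2 µg per ml) from 24 h after infection for 48 h, and were collected at 72 h. The labels name 1 MEN1 hairpin, so an effect of MEN1 loss and one of that hairpin on other transcripts cannot be told apart. Whether the replicates were separate transductions is not given, so p-values measure the spread between these libraries.

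TALE proteins carry a homeodomain with a loop of extra residues between its first and second helices. PBX proteins bind DNA together with HOX proteins, and they also pair with MEIS or PKNOX proteins (the latter also called PREP), which help to bring PBX into the nucleus and keep it stable. MEIS and PKNOX proteins compete for the same PBX surface. In blood, MEIS1 and PBX3 are best known as partners of HOXA9 in leukemias driven by fusions of KMT2A (MLL1), where their transcription depends on menin, the protein encoded by MEN1. Menin tethers MLL1 to chromatin, and the study asks about the part of the MLL1 complex in keeping fetal hemoglobin low.

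The windows before the start sites of PBX2, MEIS2 and PBX3 are shown because these are the tested members whose libraries separated by group, and because MEIS2 and PBX3 hold the only matches found to TALE motifs. They are RefSeq windows of 250 bases upstream of the start on GRCh38.p14, from which bases lying in a GENCODE v29 exon were removed. PBX2 is at chr6:32190203-32190452 on the minus strand, MEIS2 (the second of its 2 listed starts) at chr15:37098697-37098900 on the minus strand, and PBX3 at chr9:125747933-125748181 on the plus strand. Each is written 5′ to 3′ in the direction of the gene, with motif matches in capitals.
PBX2: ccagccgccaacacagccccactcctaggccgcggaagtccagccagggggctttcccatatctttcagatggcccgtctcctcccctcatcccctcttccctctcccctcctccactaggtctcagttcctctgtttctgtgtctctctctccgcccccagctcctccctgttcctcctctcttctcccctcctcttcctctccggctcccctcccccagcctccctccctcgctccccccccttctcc
MEIS2: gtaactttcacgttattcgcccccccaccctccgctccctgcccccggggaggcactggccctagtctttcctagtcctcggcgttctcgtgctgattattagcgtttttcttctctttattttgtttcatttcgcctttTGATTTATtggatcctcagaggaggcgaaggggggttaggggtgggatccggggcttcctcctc
PBX3: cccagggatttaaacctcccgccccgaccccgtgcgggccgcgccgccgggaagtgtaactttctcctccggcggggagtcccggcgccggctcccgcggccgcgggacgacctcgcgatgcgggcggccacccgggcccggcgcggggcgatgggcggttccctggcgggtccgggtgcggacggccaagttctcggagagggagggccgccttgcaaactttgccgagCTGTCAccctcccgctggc

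The motifs were searched on both strands of the full 250-base windows. The MEIS and PKNOX core was searched as TGACAG, which 13.0% of all 35116 RefSeq windows of this length hold. The PBX core site was searched as TGATTG, with a match in 11.4% of windows, and the PBX and HOX composite as TGATNNAT, with a match in 6.47%. These last can overlap each other. A PBX and MEIS composite that joins their core sites had a match in 0.134% of windows. The GATA site, searched as AGATAA, had one in 9.17%. The capitals in PBX3 are a match to the MEIS and PKNOX core on the opposite strand, ending 14 bases before the start. Those in MEIS2 are a match to the PBX and HOX composite ending 56 bases before the start. The PBX2 window holds 7 CG dinucleotides and no match to these motifs. PBX3 has 36 CG dinucleotides and the second MEIS2 start 13, against a median of 11 over all windows. The window of the first MEIS2 start, not shown, has 26 and no match. Of the 8 genes, 7 had an entry in the RefSeq table. A match describes letters in a window and was not tested for binding.

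Of the 8 genes, 4 passed the filter on TPM and were compared: PBX2, PBX3, PKNOX1 and MEIS2. The other 4, MEIS1, MEIS3, PBX4 and PKNOX2, were too low in TPM. A gene was tested if it reached 1 TPM (transcripts per 1000000, a share of the library scaled for gene length) in at least 3 of the 6 libraries. This left 14294 genes, which were tested on log2(TPM + 1) with limma. It is a linear model that draws each gene's variance toward a trend over all genes. Benjamini-Hochberg adjustment covered all tested genes, with a threshold of 0.05. MEIS2 fell and PBX2 rose with the MEN1 shRNA, and PBX3 and PKNOX1 did not pass. The 2 calls among 4 tested members stand against 53.6% of all tested genes called in the same comparison, 22.1% higher and 31.5% lower. The libraries of the groups did not overlap for 3 of the 4 (MEIS2 lower, PBX2 and PBX3 higher), against 61.8% of all tested genes, 25.8% higher and 35.9% lower. The median log2 fold change was 0.05 over the 4 tested members and -0.07 over all tested genes.

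The targeted gene, MEN1, stood at 41.2, 39.6 and 37.1 TPM in the controls against 6.29, 6.44 and 6.88 TPM under its hairpin, or 16.6% of the control level (log2 fold change -2.42, SE 0.0803, limma adjusted p 8.5e-06). Depth, inferred from the ratio of coverage to FPKM, was 18400000 to 35800000 read pairs per library, and 13865 to 14361 genes reached 1 TPM. All 10 erythroid markers checked (HBB and GATA1 among them) were at 10 TPM or more in every library. Their summed TPM was 75410 to 83187 with the MEN1 shRNA and 45007 to 49151 in the controls, most of it HBB. Of these 10, 7 were called higher, against 22.1% of all tested genes. KLF1, GATA1 and EPOR did not pass (log2 fold changes -0.05, 0.06 and 0.02, limma adjusted p 0.508, 0.327 and 0.859). Of 5 megakaryocyte markers 1 reached 1 TPM (ITGA2B), PF4 was listed at 0 throughout, and the sum was 17.0 to 21.6 against 31.9 to 36.7. The sums were 0.728 to 1.80 against 2.22 to 2.72 for 5 myeloid markers, with 1 at 1 TPM or more (LYZ), 0 to 0.125 against 0.0123 to 0.165 for 3 B cell markers, with MS4A1 at 0 throughout, and 3.09 to 5.43 against 0.0709 to 0.777 for 2 T cell markers, with CD3D at 1 TPM or more. They were 121 to 138 against 231 to 247 for 4 stromal or epithelial markers, most of it EPCAM, with 3 at 1 TPM or more. COL1A1 and COL1A2 reached 1 TPM in control replicate 2 alone (2.24 and 2.02 TPM). The sums were 2.48 to 4.95 against 2.46 to 2.65 for 3 neural markers, with SOX2 at 0 throughout and TUBB3 at 1 TPM or more. Among the tested markers of these other types, ITGA2B, LYZ and EPCAM were called lower, CD3D was called higher, and TUBB3 did not pass. LYZ passed the filter only through the controls and CD3D only through the MEN1 shRNA libraries, so those calls are not independent of the filter. The part of these marker differences in the results below was not tested.

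**Figure D1:**
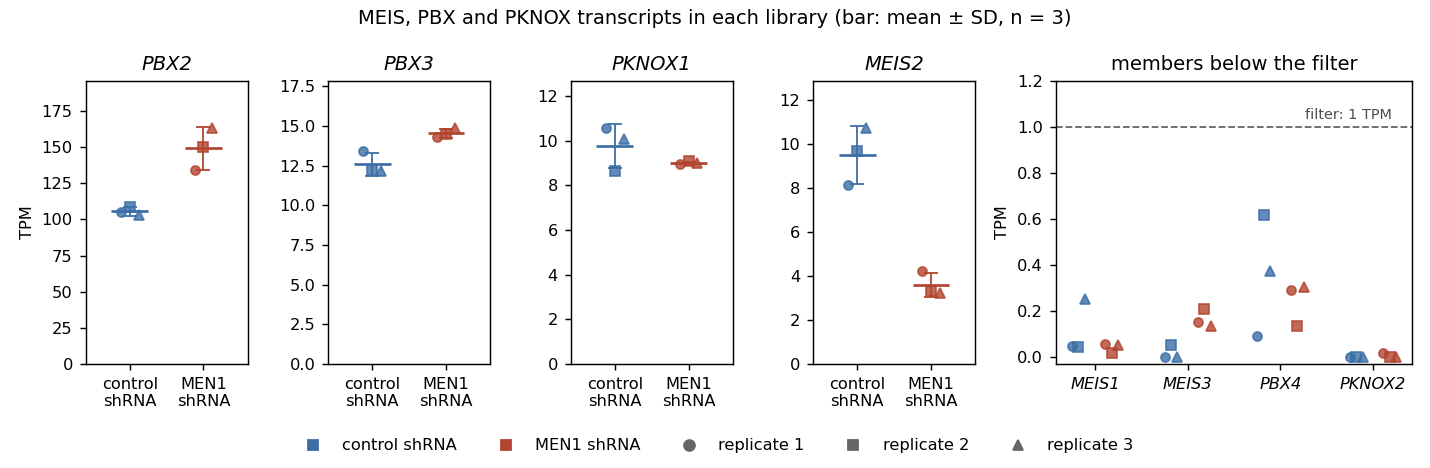
TPM of each of the 8 genes in each library, with linear axes from 0 for the 4 tested genes (horizontal bar and whiskers: mean ± SD, n = 3 per group) and a joint panel for the 4 genes below the filter of 1 TPM (dashed line). The MEIS2 points of the MEN1 shRNA libraries (3.25 to 4.22 TPM) lie below those of the controls (8.12 to 10.7 TPM), and the PBX2 points (134 to 163 TPM) lie above them (103 to 109 TPM).

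MEIS2, one of the 3 MEIS genes that encode the DNA-binding partner of PBX (ENSG00000134138, chromosome 15, 36889204 to 37101299, minus strand, hg38), made up nearly all of the summed MEIS TPM in these cells. Its TPM was 8.12, 9.70 and 10.7 in control replicates 1, 2 and 3 and 4.22, 3.31 and 3.25 in the MEN1 shRNA libraries. Every MEN1 shRNA library lay below every control library, and MEN1 shRNA replicate 1 was the nearest to the controls. Mean TPM was 3.59 ± 0.546 against 9.51 ± 1.31 (SD, n = 3 each), which is 37.8% of the control level. In the limma fit the log2 fold change was -1.19 (SE 0.140, 95% interval -1.52 to -0.87, adjusted p 0.000312), and 4.46% of all tested genes had a lower one. In a bulk sample, fewer cells that express a gene and less RNA per cell cannot be told apart. Taken alone, 3 against 3 libraries cannot give an exact permutation p below 0.1.

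The MEIS2 row spans many isoforms, and TPM depends on the lengths of the isoforms to which reads were assigned. Read coverage divided by library depth is a further measure. It is also a value per base, and the length behind it could not be recovered for genes with several isoforms, so it is not shown to be free of isoform length. On that measure, with each gene rescaled to its mean TPM, MEIS2 was at 9.25, 10.02 and 8.74 in the controls and at 4.01, 3.46 and 3.83 with the MEN1 shRNA, 40.3% of the control level. The groups did not overlap on this measure either. Before any scaling, MEIS2 coverage was low, at 1.14, 1.64 and 0.927 reads per base in the controls and 0.452, 0.418 and 0.323 with the MEN1 shRNA. The 3 other rows that overlap the gene, 2 on its strand and 1 on the other, reached at most 0.534 TPM.

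MEIS1, the MEIS gene that HOXA9-driven leukemias depend on (ENSG00000143995, chromosome 2, 66433452 to 66573869, plus strand), was barely detected in either group. Its TPM was 0.0462, 0.0452 and 0.252 in control replicates 1, 2 and 3 and 0.0570, 0.0158 and 0.0512 in the MEN1 shRNA libraries. The groups overlapped, and control replicate 3 alone exceeded 0.1 TPM. The 6 coverage values were 3.00, 1.00 and 2.00 times the lowest one in MEN1 shRNA replicates 1, 2 and 3 and 2.95, 3.50 and 12.98 times in control replicates 1, 2 and 3. Coverage was at most 0.0823 reads per base, and a difference in MEIS1 was not detectable at this depth.

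MEIS3, the third MEIS gene (ENSG00000105419, chromosome 19, 47403124 to 47419527, minus strand), was listed at 0 in control replicates 1 and 3 and at 0.0514 TPM in control replicate 2. It was at 0.151, 0.209 and 0.135 TPM in the MEN1 shRNA libraries. All 3 MEN1 shRNA values lay above the 3 controls, at levels far below the filter, where mean coverage was at most 0.324 reads per base. Unscaled coverage alone does not set MEIS3 apart, since MEIS2 was at 0.323 to 0.452 in the MEN1 shRNA libraries. With no filter on low genes MEIS3 passed the threshold (log2 fold change 0.196, limma adjusted p 0.0192). That setting called 6847 of 35241 genes, and MEIS3 is still counted as too low to compare. MEIS2 carried the family total: the summed TPM of the 3 MEIS genes went from 9.64 ± 1.41 in the controls to 3.80 ± 0.549 with the MEN1 shRNA, and the share of MEIS2 in it was 98.7% ± 0.906 and 94.5% ± 0.839.

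PBX2, a PBX gene in the major histocompatibility region (ENSG00000204304, chromosome 6, 32184733 to 32190202, minus strand), was by far the most abundant member. Its TPM was 105, 109 and 103 in control replicates 1, 2 and 3 and 134, 150.2 and 163 in MEN1 shRNA replicates 1, 2 and 3. The groups did not overlap, and the MEN1 shRNA libraries were spread more widely than the controls. The means were 149 ± 14.6 and 106 ± 2.99 TPM (SD, n = 3 each), a ratio of 1.41 (log2 fold change 0.49, SE 0.0785, 95% interval 0.31 to 0.67, limma adjusted p 0.00138). Of all tested genes 15.8% had a higher log2 fold change, so the rise of PBX2 was moderate among the changes in these cells. Leaving out MEN1 shRNA replicate 3 gave 0.42, and leaving out replicate 1 gave 0.56.

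PBX2P1, a pseudogene of PBX2 on another chromosome, could take reads from it. Its row held 0.678% to 1.46% of the summed TPM of both, and the sum went from 107 ± 3.30 to 151 ± 15.0 TPM, also 1.41 times. Of 8 antisense, divergent or pseudogene names tied to the members, 7 had a row and only PBX2P1 passed the filter (log2 fold change 0.34, limma adjusted p 0.211). One unnamed gene row on the same strand overlaps PBX2 and reached at most 1.03 TPM.

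PBX3, the PBX gene that acts with MEIS1 and HOXA9 in KMT2A-rearranged leukemia (ENSG00000167081, chromosome 9, 125747345 to 125967377, plus strand), had 13.4, 12.2 and 12.1 TPM in control replicates 1 to 3. In the MEN1 shRNA libraries it had 14.3, 14.5 and 14.9 TPM. The groups did not overlap, but control replicate 1 was close to the lowest MEN1 shRNA library. The means were 14.5 ± 0.288 and 12.6 ± 0.729 TPM, a ratio of 1.15 (log2 fold change 0.19, SE 0.0809, 95% interval 0.01 to 0.38, limma adjusted p 0.0778). This did not pass the threshold. It did pass under 3 scalings in which the median log2 fold change over all genes lay between -0.011 and 0.008. With median-of-ratios factors the log2 fold change of PBX3 was 0.28 (limma adjusted p 0.0257). With globin and mitochondrial genes taken out of the TPM total it was 0.26 (0.0291), and with quantile normalization 0.32 (0.0147). It also passed on depth-scaled coverage (0.31, limma adjusted p 0.0497), where the median over all genes was -0.052. There PBX3 was at 13.5, 10.1 and 12.5 in the controls and at 14.4, 15.7 and 15.2 with the MEN1 shRNA, with no overlap. No setting gave a value below 0. The difference between the responses of PBX3 and MEIS2 was not tested.

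PBX4, another PBX gene (ENSG00000105717, chromosome 19, 19561707 to 19618693, minus strand), was too low in TPM to compare, though its unscaled coverage reached 1.42 reads per base (0.837 to 1.24 for PBX3). Its TPM was 0.0909, 0.616 and 0.373 in the controls and 0.293, 0.137 and 0.304 with the MEN1 shRNA. The 3 MEN1 shRNA values lay inside the range of the controls. Within the summed TPM of the 3 PBX genes, which was 118 ± 3.11 in the controls and 164 ± 14.9 with the MEN1 shRNA, PBX2 held 89.1% ± 0.440 and 90.9% ± 0.681.

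PKNOX1, which encodes PREP1 and is expressed in most tissues (ENSG00000160199, chromosome 21, 42974510 to 43033931, plus strand), was the member with the smallest difference among those tested. Its TPM was 10.6, 8.67 and 10.1 in control replicates 1, 2 and 3 and 8.98, 9.07 and 8.98 in the MEN1 shRNA libraries. The MEN1 shRNA libraries lay within the range of the controls. The means were 9.01 ± 0.0529 and 9.77 ± 0.989 TPM (log2 fold change -0.10, SE 0.0996, limma adjusted p 0.423). The 95% interval of the log2 fold change, -0.33 to 0.13, does not reach a fall of the size seen for MEIS2, and the sign turned with the scaling (0.029 with quantile normalization). On depth-scaled coverage PKNOX1 was at 9.26, 9.35 and 9.43 in the controls and at 10.1, 9.17 and 9.02 with the MEN1 shRNA, a ratio of 1.01.

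PKNOX2, its paralog (ENSG00000165495, chromosome 11, 125164687 to 125433389, plus strand), was listed at 0 in 5 of the 6 libraries and at 0.0192 TPM in MEN1 shRNA replicate 1, too low to compare.

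**Figure D2:**
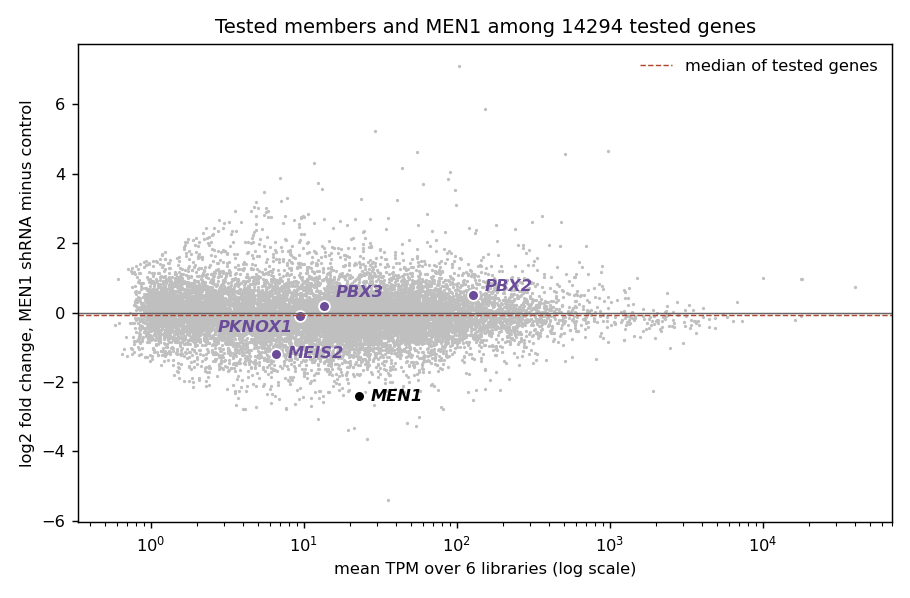
Log2 fold change (MEN1 shRNA minus control shRNA, on log2(TPM + 1)) against mean TPM on a log axis for the 14294 tested genes (grey), with the 4 tested members in purple and MEN1 in black. MEIS2 (-1.19) sits in the lower part of the cloud and PBX2 (0.49) in the upper part, while PKNOX1 (-0.10) lies near the median of all genes (dashed, -0.07) and PBX3 (0.19) lies above it.

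The order of the members by TPM was the same at the top in both groups, with PBX2 first and PBX3 second. In the controls PKNOX1 and MEIS2 followed at 9.77 ± 0.989 and 9.51 ± 1.31 TPM, which did not differ beyond their spread. With the MEN1 shRNA, PKNOX1 was at 9.01 ± 0.0529 and MEIS2 at 3.59 ± 0.546 TPM, and these did not overlap. The ratio of PKNOX1 to MEIS2 TPM was 1.30, 0.894 and 0.942 in control replicates 1, 2 and 3 and 2.13, 2.74 and 2.77 in the MEN1 shRNA libraries. The ratio of PBX2 to MEIS2 was 12.9, 11.2 and 9.60 in the controls and 31.7, 45.4 and 50.2 with the MEN1 shRNA. Of the summed TPM of all 8 genes, MEIS2 held 6.90% ± 0.969 in the controls and 2.06% ± 0.483 with the MEN1 shRNA, and PBX2 held 76.5% ± 1.13 and 84.3% ± 1.45. These ratios and shares concern RNA, rest on the lengths that TPM assumes for each gene, and carry no test. On unscaled coverage, PKNOX1 was at 8.53 to 17.2 reads per base over the 6 libraries. That lay above PBX3 (0.837 to 1.24) and MEIS2 (0.323 to 1.64), so the order of these genes depends on the measure.

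**Figure D3:**
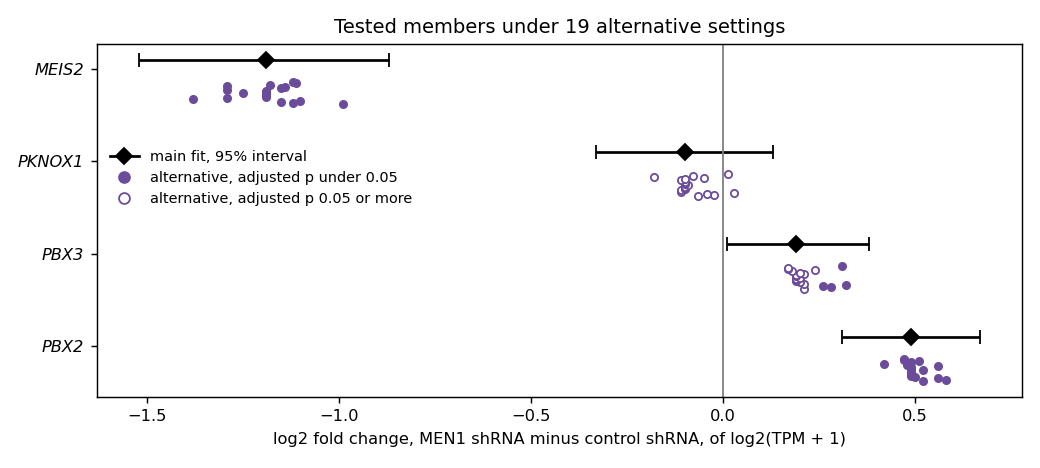
Log2 fold change of the 4 tested members in the main fit (black diamond, 95% interval) and under 19 alternative settings (circles, filled where the adjusted p is under 0.05). All MEIS2 and PBX2 circles are filled, those of PKNOX1 are all open and lie on both sides of 0, and 4 of the PBX3 circles are filled.

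The genes whose values ran most closely with those of MEIS2 over the 6 libraries were NRM, which encodes the nuclear envelope protein nurim (Pearson r 0.9999), ATR, a DNA damage checkpoint kinase (r 0.9998), and ADGRA3, an adhesion receptor (r 0.9990). NRM was at 7.44 ± 1.12 TPM with the MEN1 shRNA and 21.3 ± 3.21 TPM in the controls. For PBX2 they included NFAT5, a transcription factor of the osmotic stress response (r 0.9985), and PRC1, a protein of the central spindle in dividing cells (r 0.9979). These correlations are a description over 6 libraries in 2 groups that the genes share, and 1027 genes had an r of 0.98 or more with MEIS2 and 347 with PBX2.

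Other TALE genes were next compared. Of 12 names, among them the TGIF, IRX and MKX genes, 4 passed the filter. Of these 4, 1 was called, against 53.6% of all tested genes. TGIF2, a TALE repressor that restrains TGF-beta signaling, was lower, at 3.69 ± 1.51 against 11.2 ± 1.21 TPM (limma log2 fold change -1.42, SE 0.216, adjusted p 0.00106). Its TPM was 10.6, 12.6 and 10.5 in the controls and 5.38, 2.50 and 3.19 with the MEN1 shRNA, with no overlap. The remaining 3 tested did not pass. Among them, TGIF1 was at 21.8 ± 3.94 against 18.9 ± 1.28 TPM (limma adjusted p 0.258) and IRX4 at 5.75 ± 0.427 against 4.27 ± 1.51 TPM (limma adjusted p 0.166).

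HOX proteins are the partners through which PBX and MEIS proteins gain much of their sequence choice. Of 39 HOX genes, 4 passed the filter, all in the HOXB cluster, and 35 were below it at 0.286 TPM or less. Of the 4 tested, 1 was called, against 53.6% of all tested genes. HOXB7 rose from 3.67 ± 0.388 to 6.42 ± 1.26 TPM (log2 fold change 0.66, limma adjusted p 0.00829). Its row spans those of HOXB8 (0 TPM throughout) and HOXB9 (at most 0.156 TPM) on the same strand, and the HOXB3 row spans that of HOXB4. How reads were divided between such rows was not tested. HOXB2 was at 19.4 ± 6.67 against 21.0 ± 0.528 TPM (adjusted p 0.537), HOXB3 at 8.09 ± 1.69 against 7.28 ± 1.62 TPM (0.556) and HOXB4 at 11.5 ± 3.44 against 6.68 ± 4.11 TPM (0.151). HOXA9, the leukemia partner of MEIS1, was listed at 0 in 5 libraries and at 0.0419 TPM in MEN1 shRNA replicate 1.

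Proteins that bind PBX or MEIS, or set their activity or stability, were all above the filter. Of 15 genes, 5 rose, 5 fell and 5 did not pass (66.7% called, against 53.6% of all tested genes), with a median log2 fold change of -0.13. Among those that rose were MYH9, a non-muscle myosin heavy chain (281 ± 23.3 against 193 ± 3.56 TPM, log2 fold change 0.54, limma adjusted p 0.000503), and CREBBP, a histone acetyltransferase (38.7 ± 1.04 against 28.3 ± 1.11 TPM, 0.44, adjusted p 0.000933). PBXIP1, which encodes a protein that binds PBX and blocks its pairing with HOX, rose from 16.4 ± 0.526 to 24.7 ± 2.10 TPM (0.56, adjusted p 0.00108), and CRTC2, a CREB coactivator, from 25.3 ± 1.13 to 36.8 ± 2.89 TPM (0.52, adjusted p 0.00112). Of 3 listed parts of a ubiquitin ligase that has MEIS2 as a substrate, CRBN and CUL4A fell and DDB1, which joins them, did not pass. CRBN was at 29.8 ± 3.64 against 45.4 ± 3.18 TPM (log2 fold change -0.60, adjusted p 0.00181) and CUL4A at 63.1 ± 3.36 against 83.5 ± 3.07 TPM (-0.40, adjusted p 0.00136). DDB1 was at 288 ± 9.00 against 291 ± 2.12 TPM (-0.01, limma adjusted p 0.839). These 3 lie outside the naming rule and were chosen after their values were seen.

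The menin-MLL1 complex genes stood at 3 higher, 4 lower and 3 not past of 10 (70.0% called, against 53.6% of all tested genes), with a median log2 fold change of 0.03. Apart from MEN1, the lowest adjusted p-values were those of ASH2L (0.70, limma adjusted p 0.000125), WDR5 (-0.51, 0.000994) and HCFC2 (0.90, 0.00134).

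Genes known to act with or downstream of HOXA9 and MEIS1 in leukemia were mostly lower. Of 17 names, 10 passed the filter, 8 fell and 2 rose, with a median log2 fold change of -1.03. All of the 10 were called, against 53.6% of all tested genes (22.1% higher and 31.5% lower). SOX4, which fell, passed the filter only through the controls (2.04, 2.01 and 2.58 TPM, against 0.559, 0.370 and 0.448 TPM). Its call is therefore not independent of the filter. Among those that fell were TRIB2, a pseudokinase gene that MEIS1 activates (2.63 ± 1.25 against 15.6 ± 0.600 TPM, log2 fold change -2.24, limma adjusted p 0.000137), MYC (74.1 ± 15.4 against 232 ± 6.52 TPM, -1.65, adjusted p 6.4e-05) and MYB (106 ± 8.91 against 250.2 ± 11.8 TPM, -1.23, adjusted p 3.0e-05). CCND3, a D-type cyclin with a known part in erythroid division, rose from 198 ± 11.1 to 746 ± 79.7 TPM (1.90, adjusted p 1.7e-05). The genes below the filter included FLT3, HLF, CD34, MEF2C, BCL2 and EYA1. MEIS2 was the sole MEIS gene tested, and no link between it and these genes was tested.

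**Figure D4:**
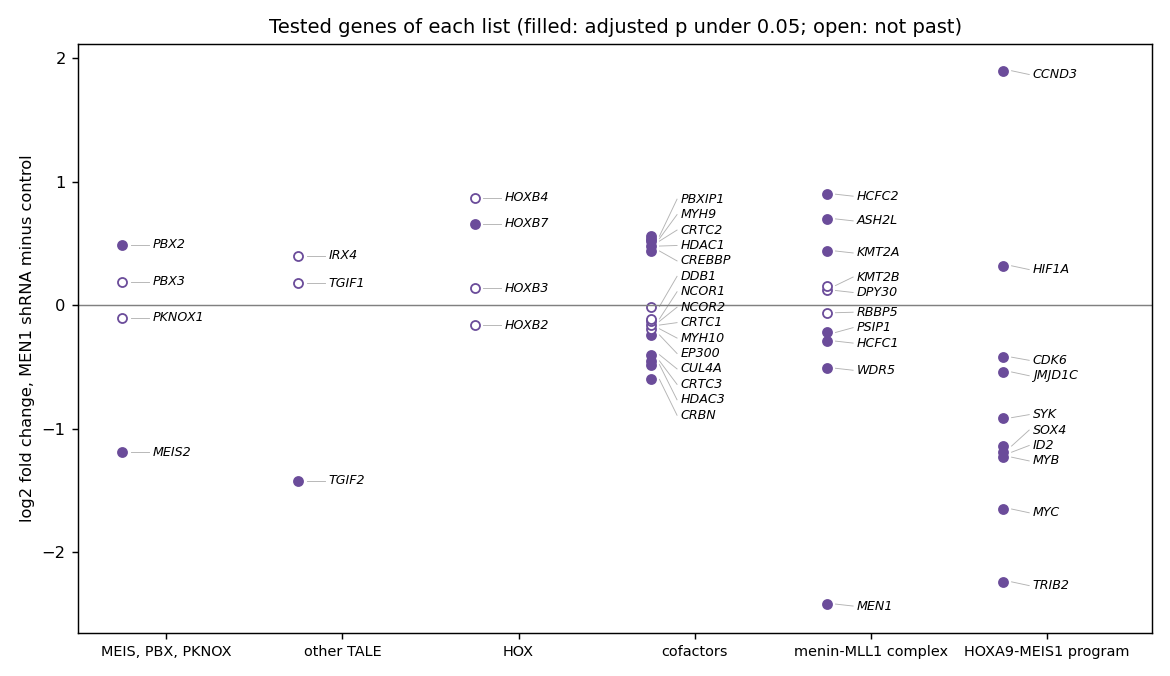
Log2 fold change (MEN1 shRNA minus control shRNA) of the tested genes of 6 lists (1 of the other TALE genes is not shown), filled where the adjusted p is under 0.05. MEIS2 and TGIF2 are the TALE genes past the threshold below 0 and PBX2 the one above it, and 8 of the 10 genes of the HOXA9-MEIS1 list lie below 0.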

How the data were processed

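Per the labels' protocols, total RNA was poly(A)-selected and made into directional libraries. Per the submitters' processing notes, FastQC, Trimmomatic, STAR 2.7.1a, Picard 2.20.4, StringTie 2.0.4 and hg38 were used; no source used here names the annotation release or strand setting. Each library has 1 deposited table, in which TPM is scaled by the authors to sum to 1000000, FPKM is scaled by the authors for gene length and sequenced fragments, and coverage is the authors' unscaled per-base signal. Negative residues near 0 in control replicate 2 were set to 0. No count is in these tables, so no count model was fitted. Depth was the modal ratio of coverage to FPKM, divided by an assumed 302 bases per read pair.

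Differences are MEN1 shRNA minus control, from limma 3.58.1 (R 4.3.3, eBayes with a trend, 2-sided) on log2(TPM + 1), which understates changes of low genes. That fit was first run on simulated data in which far fewer genes changed than the 53.6% called here. That run therefore does not show how the fit behaves with so many changes. Motif searches and plots used Python 3.11.15 with matplotlib 3.10.9, NumPy 2.4.6 and pandas 2.3.3. Named were all members, MEN1, up to 4 called genes per list with the lowest adjusted p, and the 3 genes most correlated with the member of lowest adjusted p and with the most abundant member; some genes this rule names are not reported here. The members, lists and tests were chosen with earlier results of these data known. Alternatives covered scaling, pseudocount, filter, variance model, replicate block and single libraries.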

Additional observations from a re-analysis of the deposited data

How the results depend on the processing

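MEN1, MEIS2 and PBX2 kept their direction and their side of the threshold under all 19 alternatives run for each, at log2 fold changes of -2.57 to -2.22, -1.38 to -0.99 and 0.42 to 0.58, with adjusted p-values of at most 0.000343, 0.00273 and 0.00773. The setting with depth-scaled coverage, and those of the PBX2 share, were chosen after seeing the data. PBX3 passed the threshold with median-of-ratios scaling (0.28), TPM rescaled without globin and mitochondrial genes (0.26), quantile normalization (0.32) and depth-scaled coverage (0.31, adjusted p 0.0497), and its adjusted p over all alternatives ran from 0.0147 to 0.200. In each of these 4 settings 3 members passed in place of 2, and also 3 with no filter, where MEIS3 was the third. The first 3 settings moved the median over all genes from -0.07 to between -0.011 and 0.008, and the percent of calls that were higher from 41.2% to between 47.3% and 49.5%. PKNOX1 reversed to 0.029 with quantile normalization and 0.012 with depth-scaled coverage, and never passed the threshold. The cause of these shifts was not tested. Counts of genes past the threshold ran from 6345 to 8033.

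With 1 library left out at a time, 6577 to 7542 genes and 2 members passed, with log2 fold changes of -2.46 to -2.38 for MEN1, -1.29 to -1.11 for MEIS2, 0.42 to 0.56 for PBX2, 0.17 to 0.24 for PBX3 and -0.18 to -0.049 for PKNOX1. The PBX2 share of PBX TPM, 1.87 percentage points higher with the MEN1 shRNA, was 1.59 to 2.25 points higher with a library left out. Deviations from the group means hardly correlated between libraries of the same replicate number (0.017, -0.027 and -0.012), so the numbers were not taken as pairs. In a fit with a replicate block, 7012 genes were called, MEIS2 and PBX2 stayed past the threshold (adjusted p 0.00273 and 0.00483) and PBX3 did not (0.153). MEIS1, MEIS3, PBX4 and PKNOX2 were too low in TPM to compare, and none of them reached 1 TPM in any library.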
